A study of Mus musculus with 8 samples.

Results

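The 10 genes examined here, all of inflammation, were followed across leukemic mouse marrow: the chemokines Cxcl2, Ccl3, Ccl4, Ccl6 and Ccl9, the cytokines Il1a, Il1b and Tnf, and the NF-kB feedback genes Nfkbia and Tnfaip3. They were taken by symbol, and all 10 were found among the 23997 genes of the deposited table. The RNA came from unsorted marrow, as far as the labels say, of C57BL/6 recipients dead of leukemia. All 3 groups started from marrow of 5-fluorouracil-treated mice, taken 4 days after the drug, cultured with IL3, IL6 and SCF, transduced, and given 48 hours later to lethally irradiated recipients. The groups carried AML1-ETO with Meis2 (AE+Meis2, n = 3, median latency 171 days), AML1-ETO9a with Meis2 (AE9a+Meis2, n = 3, 102 days) or AML1-ETO9a alone (AE9a, n = 2, 138 days). AML1-ETO joins the blood regulator RUNX1 to the corepressor RUNX1T1, AML1-ETO9a is a shorter splice form of it, and Meis2 is a homeobox transcription factor. No group lacked a fusion gene, the sources used here give neither the vector's promoter nor the age of the mice, and host cells that survived irradiation remain in such a sample. Values are FPKM, in which fragment numbers are divided by the length of the transcript and by library size, so levels of different genes can be set side by side, and values per library are given in order of replicate number.

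NF-kB is a family of transcription factors held in the cytoplasm by inhibitor proteins until a signal from a Toll-like, interleukin-1 or TNF receptor has the inhibitor destroyed. Its targets include the cytokines that switch it on again, chemokines that draw neutrophils and monocytes, and its own brakes, among them Nfkbia (the inhibitor IkB-alpha) and Tnfaip3 (A20, a ubiquitin-editing enzyme). Marrow monocytes, macrophages and neutrophils are the usual sources of these messages, many of which last only minutes to hours in the cell.

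Some libraries stood apart before any of the 10 genes was compared. In the library labelled AE+Meis2 replicate 1 both transduced genes went against the label. Runx1t1 stood at 21.6 FPKM there, against 223 and 218 in replicates 2 and 3 and 10.3 to 26.8 in the 5 libraries with AML1-ETO9a. Meis2 at 13.1 FPKM there was below the 13.2 of AE9a replicate 2. Replicates 2 and 3 of AE+Meis2 held 38.2 and 81.5 FPKM of Meis2, far below the 621, 604 and 1277 of AE9a+Meis2. Of 1543 genes in families that marrow does not use, such as olfactory receptors, 84.1% were above 0 in replicate 3 of AE9a+Meis2, as were 72.1% in replicate 1 of AE9a, against 3.37% to 6.61% elsewhere. Low values in that pair of libraries, such as those of Il1a, stand beside that background. An exact 0 in this table can be a failed estimate: S100a9, an abundant neutrophil gene, is listed at 0 in all 3 AE+Meis2 libraries, but none of the 10 genes is at 0 in any library. Relative depth, read from the most common ratio of low values, spanned about 8.14-fold, and absolute depth is unknown. The granulocyte enzyme Mpo was expressed in every library, between 117 and 2484 FPKM, which by itself does not identify the tissue. Fewer cells of a type and less RNA per cell cannot be told apart in such bulk samples.

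Promoter sequences were available for 9 of the 10 genes (RefSeq, GRCm38.p6, the 250 bases before the annotated start). A match to the kB consensus, the site bound by NF-kB (10 bases: GGG, a purine, any 2 bases, 2 pyrimidines, CC), was searched on both strands. It was found in 4 of the 9, Cxcl2, Ccl9, Nfkbia and Tnfaip3, against 7.25% of 32851 promoter windows of the same length. Those 4 are shown because they hold a match, and Ccl3 is shown because it varied with Ccl9 across libraries and holds none. Capitals mark the kB matches, which in Cxcl2 are 2 that overlap.
Cxcl2 (chr5:90903649-90903898, plus strand): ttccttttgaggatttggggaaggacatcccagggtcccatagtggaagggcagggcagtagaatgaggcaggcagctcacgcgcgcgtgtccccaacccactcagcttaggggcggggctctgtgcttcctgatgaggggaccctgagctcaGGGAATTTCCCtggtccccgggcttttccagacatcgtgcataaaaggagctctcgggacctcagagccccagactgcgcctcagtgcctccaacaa
Ccl9 (chr11:83578637-83578886, minus strand): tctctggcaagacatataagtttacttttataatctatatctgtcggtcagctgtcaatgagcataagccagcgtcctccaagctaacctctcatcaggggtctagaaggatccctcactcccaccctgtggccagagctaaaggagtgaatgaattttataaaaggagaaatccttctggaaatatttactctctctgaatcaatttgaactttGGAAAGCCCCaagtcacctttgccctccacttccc
Nfkbia (chr12:55492648-55492897, minus strand): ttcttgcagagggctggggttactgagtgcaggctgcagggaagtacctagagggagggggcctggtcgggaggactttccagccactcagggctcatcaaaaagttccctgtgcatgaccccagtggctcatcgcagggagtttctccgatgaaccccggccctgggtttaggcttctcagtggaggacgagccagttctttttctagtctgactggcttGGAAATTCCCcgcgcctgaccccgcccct
Tnfaip3 (chr10:19015411-19015660, minus strand): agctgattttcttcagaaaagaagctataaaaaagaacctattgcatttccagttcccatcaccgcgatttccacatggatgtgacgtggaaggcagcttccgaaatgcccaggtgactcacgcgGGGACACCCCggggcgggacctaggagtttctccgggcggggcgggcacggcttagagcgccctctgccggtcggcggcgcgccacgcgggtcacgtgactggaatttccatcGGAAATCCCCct
Ccl3 (chr11:83649379-83649628, minus strand): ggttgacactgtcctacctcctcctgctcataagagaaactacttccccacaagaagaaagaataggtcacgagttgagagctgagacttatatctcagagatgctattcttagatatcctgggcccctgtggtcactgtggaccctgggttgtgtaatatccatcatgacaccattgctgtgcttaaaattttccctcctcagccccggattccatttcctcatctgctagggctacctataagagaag
The kB match lay 29 to 20 bases before the start in Nfkbia, 35 to 26 in Ccl9 and 97 to 87 in Cxcl2, and Tnfaip3 had 2, at 125 to 116 and at 12 to 3. The RUNX motif TGTGGT, the site of the protein part that all 3 groups' fusions share, was present in 1 of the 9 genes, Ccl3 (122 to 117 bases before the start), against 14% of all windows. The AP-1 motif TGANTCA, bound by FOS and JUN proteins, was in Ccl9, Il1a and Tnfaip3, against 6.75% of windows, and TATAAA was in 5 genes (Ccl9, Il1a, Il1b, Tnf and Tnfaip3), against 12.4%. Tnfaip3 has a second RefSeq start, whose window held none of these motifs. The GENCODE span of Tnfaip3 (19000910 to 19015657, minus strand) covers nearly all of the window printed above. By that annotation its kB, AP-1 and TATAAA matches lie inside the gene and not before its start. A match is a run of letters and not a measured binding site.

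The CC chemokines gave the clearest separation between groups. Ccl9, Ccl6, Ccl3 and Ccl4 lie in that order within 91.77 kb of chromosome 11 (83572919 to 83664683, mm10). Ccl9, a monocyte-attracting ligand of the receptor CCR1 (83572919 to 83578636), was at 238, 93.2 and 111 FPKM in AE9a+Meis2. The AE+Meis2 libraries gave 37.4, 23.5 and 37.3 FPKM, and those of AE9a gave 40.8 and 33.0. All 3 AE9a+Meis2 libraries lay above all 5 others, whose values overlapped. The log2(FPKM + 1) difference was 1.85 ± 0.42 (SE) over AE9a and -2.04 ± 0.38 for AE+Meis2 against AE9a+Meis2, and -0.19 ± 0.42 between AE+Meis2 and AE9a. None passed over all 12565 genes tested (limma with Benjamini-Hochberg, adjusted p = 0.82, 0.29 and 0.98, unadjusted p = 0.0029, 0.00085 and 0.66).

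Ccl3 (MIP-1 alpha, a ligand of CCR1, 83647844 to 83649355) was at 107, 22.8 and 24.0 FPKM in AE9a+Meis2. The AE+Meis2 libraries gave 6.06, 5.15 and 20.8 FPKM, and those of AE9a gave 0.841 and 3.06. The 3 groups did not overlap, AE9a+Meis2 being highest and AE9a lowest, although the highest AE+Meis2 library lay close to the lowest of AE9a+Meis2. The log2 difference was 3.87 ± 0.83 for AE9a+Meis2 over AE9a, -2.03 ± 0.74 for AE+Meis2 against AE9a+Meis2 and 1.85 ± 0.83 for AE+Meis2 over AE9a (limma with Benjamini-Hochberg, adjusted p = 0.73, 0.66 and 0.85). Replicate 1 held the top value of both genes in AE9a+Meis2, and without it the Ccl3 difference from AE9a was 3.16 and the Ccl9 difference 1.44.

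Ccl4 and Ccl6 did not share that separation. Ccl4 (MIP-1 beta, a monocyte and T cell attractant, 83662584 to 83664683), the neighbour of Ccl3, was at 10.5, 2.21 and 5.20 FPKM in AE9a+Meis2, at 8.37, 2.17 and 9.85 in AE+Meis2 and at 0.266 and 2.82 in AE9a. Every pair of groups overlapped, and AE+Meis2 differed from AE9a+Meis2 by 0.16 ± 0.69 (limma adjusted p = 0.97). Ccl6 (83587882 to 83593087), a CCR1 ligand that mouse myeloid cells make without stimulation, was at 165, 140.4 and 188 FPKM in AE9a+Meis2, at 154, 75.4 and 210.4 in AE+Meis2 and at 136 and 127 in AE9a. It had the highest FPKM of the 10 genes in 6 of 8 libraries and lay above 90.9% of the tested genes in each of the 8. AE9a+Meis2 stood just above AE9a with no overlap, by a log2 of 0.31 ± 0.40, a difference smaller than its standard error (limma adjusted p = 1).

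Within a library the ratio of neighbours shows the same split without any scaling between libraries. The Ccl9 to Ccl6 ratio was 1.44, 0.664 and 0.587 in AE9a+Meis2, and 0.178 to 0.311 in the other 5 libraries. The Ccl3 to Ccl4 ratio was 10.1, 10.3 and 4.63 in AE9a+Meis2, and 0.725 to 3.17 in the other 5. Both ratios thus separated AE9a+Meis2 from every other library, and they were chosen after the values were seen and were not tested.

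**Figure D1:**
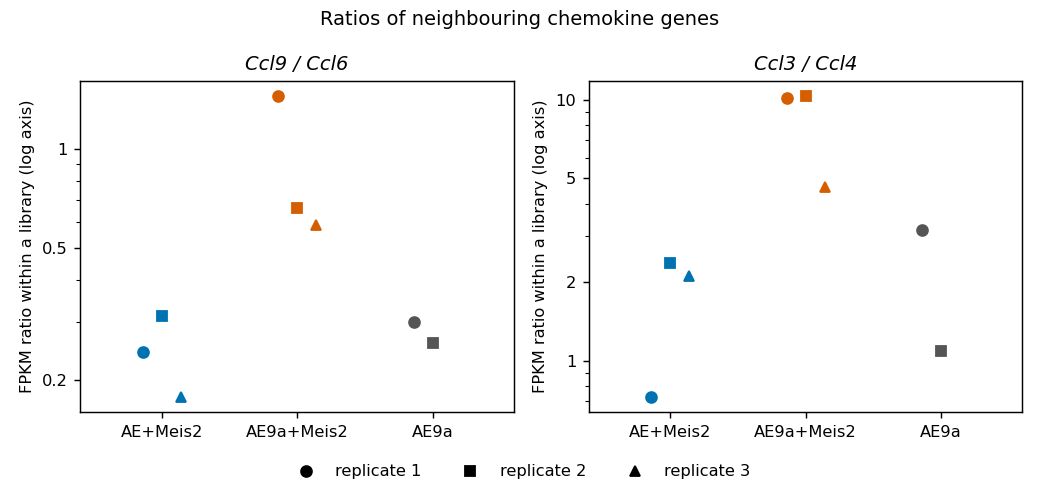
FPKM of Ccl9 divided by that of Ccl6 (left) and of Ccl3 divided by that of Ccl4 (right) within each library, on log axes, by group, 1 point per library and marker shape for the replicate number. The 3 AE9a+Meis2 points lie above the 5 others in both panels.

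Markers of monocytes moved with Ccl9 and Ccl3. The summed FPKM of 9 listed monocyte markers was 3327, 1343 and 1352 in AE9a+Meis2, 762, 460 and 1076 in AE+Meis2 and 871 and 723 in AE9a, so that AE9a+Meis2 did not overlap the others here either. The library with the highest sum, AE9a+Meis2 replicate 1, was also the one with the highest Ccl9 and Ccl3. No monocyte marker was at 0 across a group, and the part of these cells in the chemokine levels was not tested. T and NK cells, another known source of Ccl3 and Ccl4, had summed markers of 36.2 to 136 FPKM in AE9a+Meis2, 52.5 to 83.9 in AE9a and 159 to 216 in AE+Meis2. In AE+Meis2 much of the sum was Ccl5 (75.6, 109 and 32.7 FPKM), itself an inflammatory ligand, and Nkg7 (48.9, 20.4 and 101). Those and Cd8a, Gzma and Gzmb were highest in an AE+Meis2 library. Cd3e, Cd3g, Cd3d, Klrd1 and Ncr1 were highest in AE9a+Meis2 replicate 3, so the sums do not rank T and NK cell content. Resident macrophage markers summed to 28.1 to 83.7 FPKM in AE9a+Meis2, below the 101 and 182 of AE9a, and the AE+Meis2 sums of 361, 199 and 68.2 spanned both. Of these markers only Mertk was higher in AE9a+Meis2 than in AE9a (log2 0.32 ± 1.32), with 37.2 FPKM in replicate 1.

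Cxcl2 (MIP-2, a neutrophil attractant acting through CXCR2, chromosome 5, 90903871 to 90905938) varied most of the 10. It was at 16.5, 3.74 and 385 FPKM in AE+Meis2, at 1.55, 6.201 and 44.1 in AE9a+Meis2 and at 0.429 and 0.241 in AE9a, a 1599-fold range. Both AE9a libraries lay below all 6 libraries labelled with Meis2, among them the library labelled AE+Meis2 replicate 1, whose own Meis2 lay within the range of AE9a. AE+Meis2 and AE9a+Meis2 overlapped. The log2 difference from AE9a was 4.58 ± 1.86 in AE+Meis2 and 2.82 ± 1.86 in AE9a+Meis2, and neither was called over all genes (adjusted p of 0.83 and 1 from limma). The library labelled AE+Meis2 replicate 3 held 84.1% of the summed Cxcl2 of all 8, and without it the first difference was 2.77 ± 1.29. Without AE9a+Meis2 replicate 3 the second was 1.69. Against AE9a+Meis2 the difference of AE+Meis2 was 1.76 ± 1.67 with its replicate 3 and -0.04 ± 1.18 without it.

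Il1b, the secreted interleukin-1 of activated myeloid cells (chromosome 2, 129364570 to 129371139), had the same top library as Cxcl2. It was at 19.4, 3.33 and 256 FPKM in AE+Meis2, at 1.68, 5.13 and 23.6 in AE9a+Meis2 and at 1.36 and 17.3 in AE9a. All groups overlapped, and in each group the highest library lay far above the lowest. The log2 differences were 0.17 ± 1.77 for AE9a+Meis2 against AE9a, 1.93 ± 1.59 for AE+Meis2 against AE9a+Meis2 and 2.11 ± 1.77 for AE+Meis2 against AE9a (limma adjusted p = 1, 0.82 and 0.95). Without AE+Meis2 replicate 3 the differences to AE9a+Meis2 and AE9a were 0.34 and 0.52. AE9a replicate 2 was the exception to the pairing with Cxcl2, with 17.3 FPKM of Il1b and only 0.241 of Cxcl2.

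Il1a, the cell-associated interleukin-1 (chromosome 2, 129299610 to 129309972), was the lowest of the 10 genes in 6 of 8 libraries. Its FPKM was 0.529, 0.416 and 0.197 in AE+Meis2, 0.174, 0.333 and 0.474 in AE9a+Meis2 and 0.871 and 0.510 in AE9a. Under the filter of at least 1 FPKM in at least 2 libraries it was the 1 member not tested. Its highest value was in AE9a replicate 1, one of the pair with values in silent gene families.

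Tnf, the founding member of its ligand family (chromosome 17, 35199381 to 35202007), was at 6.58, 0.746 and 19.0 FPKM in AE+Meis2, at 7.95, 4.67 and 10.997 in AE9a+Meis2 and at 4.59 and 4.14 in AE9a. AE9a+Meis2 lay above AE9a with no overlap, but the closest pair stood at 4.67 and 4.59 FPKM, and AE+Meis2 spanned both groups. The log2 differences were 0.66 ± 0.91, -0.40 ± 0.81 and 0.26 ± 0.91 for AE9a+Meis2 over AE9a, AE+Meis2 over AE9a+Meis2 and AE+Meis2 over AE9a (limma adjusted p = 1, 0.93 and 0.98). Across the 8 libraries Tnf and Ccl6 followed each other most closely of all 45 pairs of members (Pearson r = 0.99 on log2 values), both being lowest in AE+Meis2 replicate 2 and highest in AE+Meis2 replicate 3. The next pairs were Cxcl2 with Nfkbia (0.85) and Cxcl2 with Il1b (0.85), and all these points share the depth and cell makeup of their library.

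**Figure D2:**
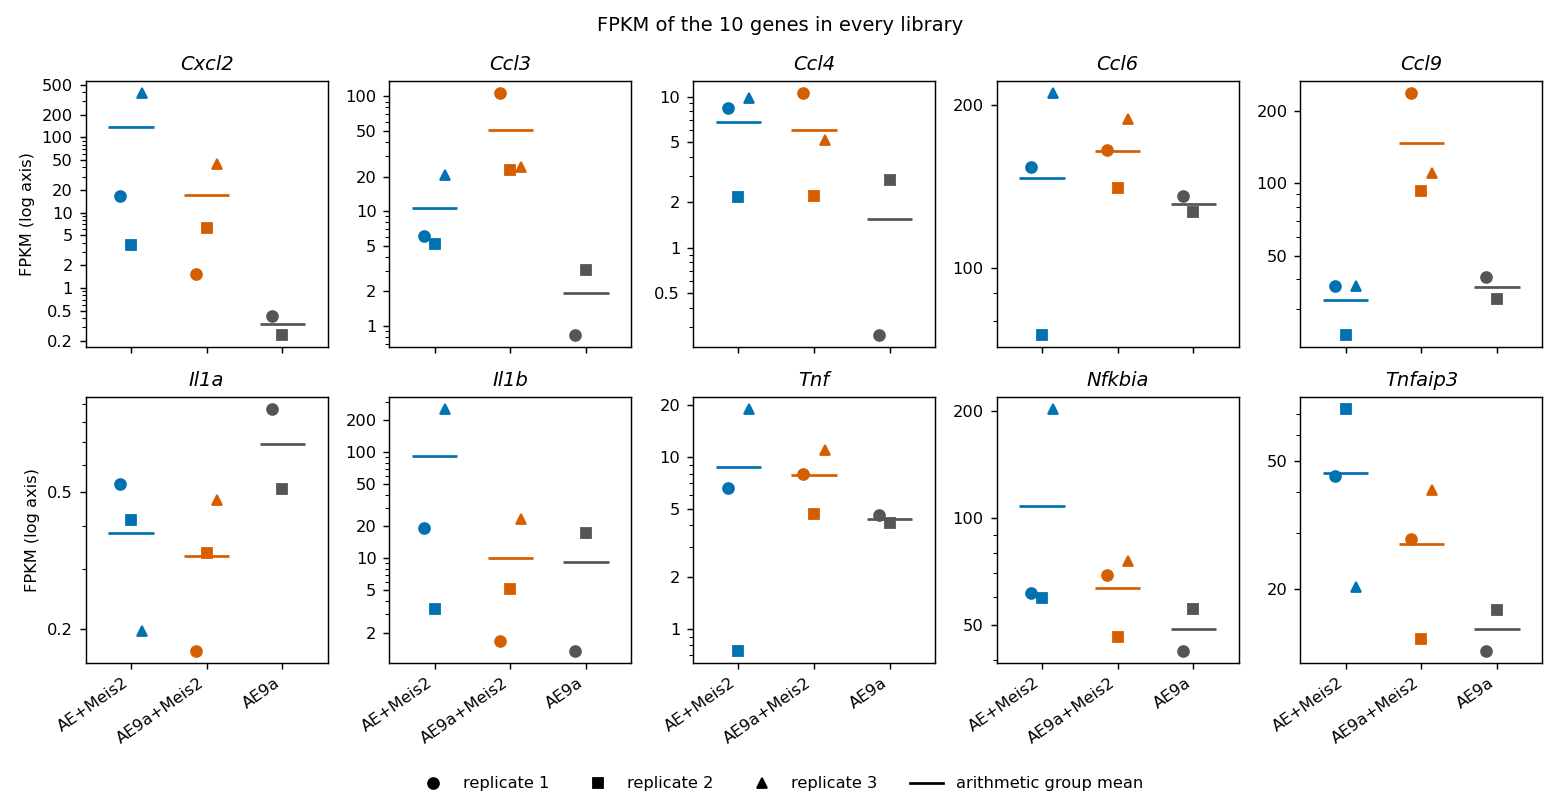
FPKM of each of the 10 genes (log axes) by group, 1 point per library, with marker shape for the replicate number and a bar for the arithmetic group mean. Ccl9 and Ccl3 are highest in all 3 AE9a+Meis2 libraries, Cxcl2 is lowest in both AE9a libraries, and AE+Meis2 replicate 3 holds the top Cxcl2, Il1b, Tnf and Nfkbia values.

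The 2 feedback genes were well expressed in all libraries and went apart in single libraries. Nfkbia (chromosome 12, 55489410 to 55492647) was at 61.6, 59.6 and 203 FPKM in AE+Meis2, at 69.3, 46.3 and 76.0 in AE9a+Meis2 and at 42.5 and 55.5 in AE9a. AE+Meis2 lay above AE9a with no overlap, by a log2 of 0.89 ± 0.54 (limma adjusted p = 0.95), which was 0.31 ± 0.28 without replicate 3. Tnfaip3 (chromosome 10, 19000910 to 19015657) was at 45.0, 72.4 and 20.3 FPKM in AE+Meis2, at 28.7, 14.03 and 40.5 in AE9a+Meis2 and at 12.9 and 17.3 in AE9a. AE+Meis2 again lay above AE9a, by 1.38 ± 0.59 (limma adjusted p = 0.83). The library with the most Nfkbia, AE+Meis2 replicate 3, had the least Tnfaip3 of its group. The Nfkbia to Tnfaip3 ratio was 9.98 there, against 0.824 to 3.30 in the other 7 libraries.

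Over the 10 genes, 9 passed the filter on low values. None of the 9 was called by limma in any of the 3 comparisons. The share of all tested genes called was 0.0478% for AE9a+Meis2 against AE9a, 0.0398% for AE+Meis2 against AE9a+Meis2 and 0.0318% for AE+Meis2 against AE9a, so calls were rare everywhere. At an unadjusted p under 0.05, 2 of 9 differed between AE9a+Meis2 and AE9a (Ccl3 and Ccl9, both higher), where 3.06% of all genes did. The same 2 differed between AE+Meis2 and AE9a+Meis2, both lower in the former, where 7.15% of all genes did. Cxcl2 alone, 1 of 9, differed between AE+Meis2 and AE9a, where 5.98% did. By sign only, 9 of 9 were above 0 in the first comparison (49.8% of all genes), 5 of 9 in the second (54.9%) and 8 of 9 in the third (55.9%).

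Counts of groups without overlap read as follows. In AE9a+Meis2 against AE9a, 5 of them (Cxcl2, Ccl3, Ccl6, Ccl9 and Tnf) had every AE9a+Meis2 library above every AE9a library, where 13.1% of all tested genes did, and none lay wholly lower (10.7%). In AE+Meis2, Ccl3 and Ccl9 lay wholly below AE9a+Meis2 (6.49% of all genes) and none lay wholly above it (7.00%). Cxcl2, Ccl3, Nfkbia and Tnfaip3 lay wholly higher in AE+Meis2 than in AE9a (9.96%) and none wholly lower (8.66%). The median log2 difference over the 9 was 0.73, 0.16 and 1.38 in these comparisons, beside -0.0011, 0.04 and 0.06 over all genes. The comparisons share libraries, so their values are not separate evidence.

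**Figure D3:**
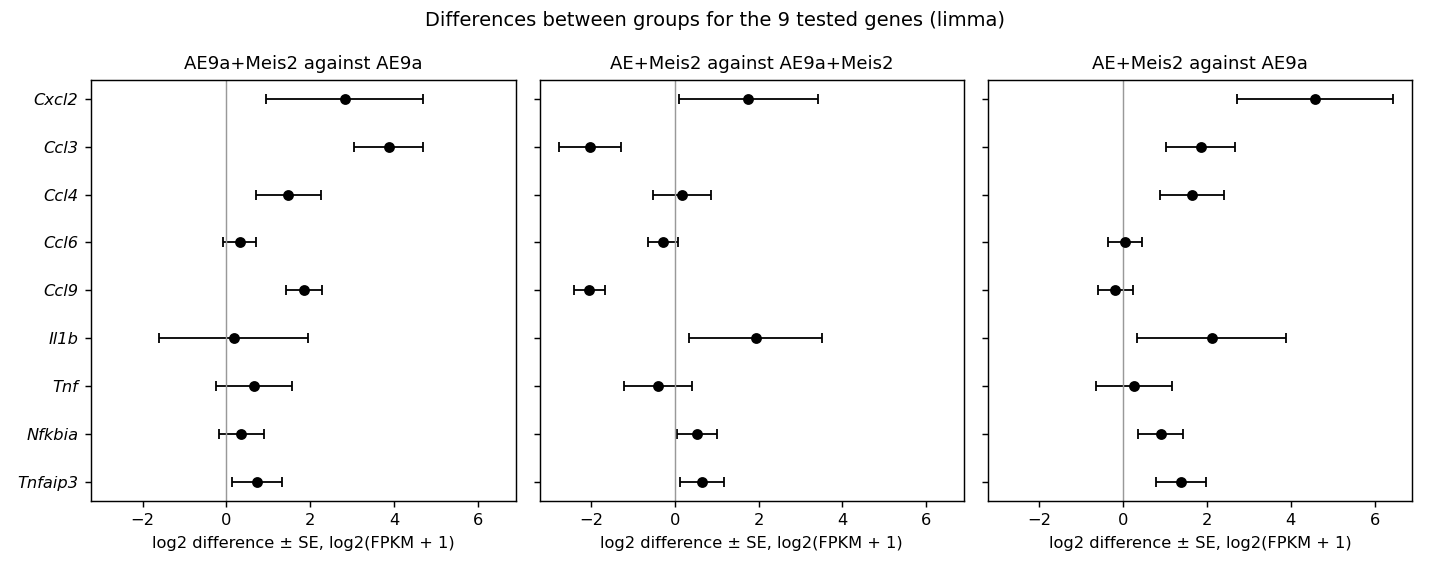
log2 differences on the log2(FPKM + 1) scale with standard errors for the 9 tested genes in the 3 comparisons, from limma over all 8 libraries. Ccl3 and Ccl9 lie to the right of 0 in the first panel and to the left in the second, and the error bars of Cxcl2 and Il1b are the widest.

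Without the library labelled AE+Meis2 replicate 1, whose transduced genes go against its label, Ccl9 differed by -2.15 ± 0.44 and Ccl3 by -1.79 ± 0.87 from AE9a+Meis2. Cxcl2 then differed by 5.01 ± 2.18 and Tnfaip3 by 1.31 ± 0.70 from AE9a, and the same 2 and 4 genes did not overlap, where 11.9% of all genes lay wholly lower in the former comparison and 17.8% wholly higher in the latter. The median of the second comparison went from 0.16 to -0.06. Without both libraries with values in silent families, Ccl3 and Ccl9 were 3.64 ± 1.17 and 2.14 ± 0.64 above AE9a, and Il1b went from 0.17 to -2.17 ± 2.36. The same 5 genes stayed wholly higher and Il1b became wholly lower, in 2 libraries against 1, where 36.1% of all genes lie wholly higher and 38.6% wholly lower.

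Handling genes moved with several members. The 12 genes listed as signs of tissue handling or acute stress, among them the immediate early factors Fos, Jun, Egr1 and Atf3, had a summed FPKM of 1812, 1073 and 1769 in AE9a+Meis2, 1115, 143 and 2650 in AE+Meis2 and 129.9 and 359 in AE9a. All 10 tested were higher in AE9a+Meis2 than in AE9a (49.8% of all genes were). Of them 9 had no overlap (13.1% of all genes lay wholly higher) and 6 had an unadjusted limma p under 0.05 (3.06% of all genes). None was called by limma over all genes. Atf3 was at 33.1, 14.3 and 43.8 FPKM against 3.92 and 3.44 (log2 2.61 ± 0.47). The part of handling in the chemokine levels was not tested. In AE+Meis2 replicate 3, the library with the highest handling sum, Ccl9 was at 37.3 FPKM against 37.4 and 23.5 in its group, and Ccl3 at 20.8 against 6.06 and 5.15.

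Granulocyte content differed still more between libraries. The 8 mature neutrophil markers found in the table, S100a8 and Camp among them, summed to 168056 FPKM in AE+Meis2 replicate 3, the library with the highest Cxcl2, Il1b, Tnf, Ccl6 and Nfkbia. The other 7 libraries lay between 1276 and 29746 FPKM. The sum of the 4 granulocyte progenitor markers was also highest there, at 5707 FPKM against 293 to 3371. Mpo, Elane and Ctsg were at their highest in that library. Prtn3 was not, at 604 FPKM against 724 in AE9a+Meis2 replicate 2. AE+Meis2 replicate 2, with the lowest Tnf and Ccl6, had the lowest progenitor sum and the second lowest neutrophil sum (1516 FPKM). AE9a+Meis2 replicate 1, with the lowest neutrophil sum (1276 FPKM), had Tnf at 7.95 and Ccl6 at 165 FPKM, above most other libraries. S100a8 weighs most in these sums, with 131098 FPKM in AE+Meis2 replicate 3. In AE9a+Meis2 replicate 1, S100a8, Retnlg, Mmp9, Cxcr2 and Ltf were at their lowest. Camp (95.8 FPKM), Csf3r (52.4) and Mmp8 (501) were not, and Mmp8 was higher only in AE+Meis2 replicate 3 (2481). How far neutrophil content sets these levels was not tested.

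**Figure D4:**
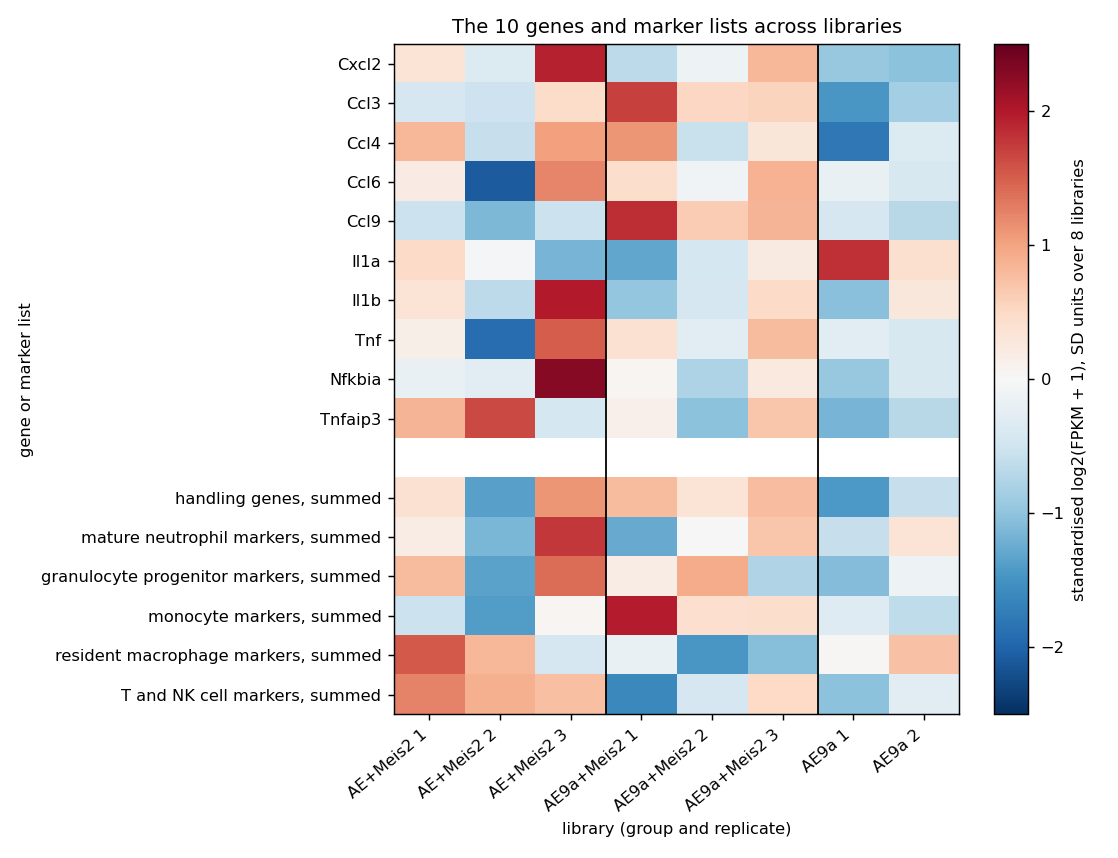
log2(FPKM + 1) of the 10 genes and of the summed FPKM of handling genes and 5 marker lists, each row standardised over the 8 libraries (colour in SD units). AE+Meis2 replicate 3 is highest for Cxcl2, Il1b and Nfkbia and for the neutrophil markers, and AE9a+Meis2 replicate 1 for Ccl3, Ccl9 and the monocyte markers.

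Cytokine and chemokine receptors were listed whether or not they bind one of the 10 genes' products. Of 13 listed, 11 were tested and limma called none. In AE9a+Meis2 7 were higher and 4 lower than in AE9a (median log2 0.34), where 49.8% of all genes were higher. AE+Meis2 had 3 above and 8 below AE9a+Meis2 (median -0.46), where 54.9% of all genes were higher. Ccr1, a receptor for Ccl3, Ccl6 and Ccl9, was at 28.3, 5.48 and 167 FPKM in AE+Meis2, at 73.7, 26.0 and 44.1 in AE9a+Meis2 and at 42.7 and 23.6 in AE9a, with every pair of groups overlapping; it and Cxcr2 were chosen after their values were seen, as receptors of the ligands above. Ccr2, the receptor by which monocytes leave the marrow, was at 23.3, 25.3 and 68.8 FPKM in AE+Meis2, below the 87.3, 96.9 and 142 of AE9a+Meis2 (log2 -1.60 ± 0.43, limma adjusted p = 0.51) and the 97.2 and 72.01 of AE9a (-1.26 ± 0.48), and it is also 1 of the monocyte markers above. Cxcr4, the marrow-retention receptor, stood at 409, 137 and 114 FPKM with AE9a+Meis2, against 51.9 and 71.3 for AE9a (log2 1.60 ± 0.70). Cxcr2, the receptor of Cxcl2 and also a listed neutrophil marker, reached 428 FPKM in AE+Meis2 replicate 3, against 5.89 to 83.2 elsewhere. Il1rl1, the receptor of interleukin-33, was lower in AE9a+Meis2 (127, 173 and 152 FPKM) than in AE9a (305 and 361).

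A list of 8 genes held those that process interleukin-1, its antagonist Il1rn and the TNF-release genes Adam17 and Rhbdf2. In AE9a+Meis2 8 of 8 lay above AE9a (49.8% of all genes did), with a median log2 of 0.48, and 4 did so without overlap (13.1% of all genes). Limma called none. Nlrp3, the sensor of the inflammasome, was at 22.2, 6.70 and 9.68 FPKM against 6.37 and 4.04 (log2 1.03 ± 0.91). Casp4, which cuts gasdermin D after sensing lipopolysaccharide, differed by 0.72 ± 0.61, and Rhbdf2, a partner of the TNF-releasing protease Adam17, by 0.65 ± 0.45. Pycard, the inflammasome adaptor, stood at 32.8, 15.2 and 28.7 FPKM with AE+Meis2, below the 39.3, 45.2 and 44.5 of AE9a+Meis2.

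Of 32 other inflammatory ligands listed, 24 were tested and limma called none. In AE+Meis2 18 lay above and 6 below AE9a+Meis2, with a median log2 of 0.55 (54.9% of all genes lay above). Against AE9a 18 lay above and 6 below (median 0.36, 55.9% of all genes above). In AE9a+Meis2 15 lay above and 9 below AE9a (median 0.12, 49.8% of all genes above). Ccl12, a monocyte chemokine, was at 14.5, 6.36 and 1.60 FPKM with AE+Meis2, above the 1.03, 0.298 and 0.544 of AE9a+Meis2 (log2 2.06 ± 0.62, limma adjusted p = 0.57). Ccl7 differed by 1.56 ± 0.48 and Cxcl3, a CXCR2 ligand, by 1.38 ± 0.33 in the same direction. All 3 had no overlap, of 24 tested, where 7.00% of all genes lay wholly higher. Cxcl3 was at 3.37, 1.64 and 0.976 FPKM in AE+Meis2, at 0, 0 and 0.296 in AE9a+Meis2 and at 0 and 0.0431 in AE9a. It passed the filter only through AE+Meis2, and a 0 can be a failed estimate, so its lack of overlap carries no weight. Ccl12, Ccl7 and Cxcl3 were all highest in the library labelled AE+Meis2 replicate 1, which goes against its label. The resident macrophage sum was also highest there (361 FPKM), mostly from C1qa, C1qb and C1qc (91.2, 143 and 97.1 FPKM). Vcam1, Cd5l, Spic, Axl and Mertk were highest in other libraries, so the sum does not rank macrophage content. Cxcl10, an interferon-induced chemokine, was at 11.1, 1.61 and 6.74 FPKM in AE+Meis2 against 0.843 and 0.315 in AE9a (log2 2.00 ± 0.60, limma adjusted p = 0.63). Cxcl1, the closest relative of Cxcl2 in function, stayed at or below 0.168 FPKM and was not tested.

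Messages for the NF-kB subunits and their kinases were measured for 14 genes. All 14 were tested, limma called none, and the median log2 difference was 0.10, -0.01 and 0.09 in the 3 comparisons. The steadiness of single genes differed: Map3k8, a kinase bound by the Nfkb1 product, spanned 3.95 to 13.8 FPKM, Rel 4.98 to 14.5 and Nfkb1 48.5 to 126. Rela, the main activating subunit, lay between 35.8 and 45.2 FPKM in all 8 libraries, and Nfkb2 between 9.27 and 12.5; these genes, Nfkb1 excepted, were chosen after their values were seen. Ripk1, a kinase of the TNF receptor complex, was higher in AE9a+Meis2 (33.3, 21.0 and 19.8 FPKM) and in AE+Meis2 (22.1, 20.6 and 31.1) than in AE9a (17.2 and 17.2), each with no overlap (log2 0.46 ± 0.29 and 0.47 ± 0.29).

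Of 24 further feedback genes and targets, limma called none. In AE9a+Meis2 against AE9a 16 were higher and 8 lower (median log2 0.15, 49.8% of all genes higher). In AE+Meis2 against AE9a 11 were higher and 13 lower (median -0.01, 55.9% of all genes higher). Tnip3, a partner of A20, was lower in AE9a+Meis2 (0.0403, 0.564 and 1.16 FPKM) than in AE9a (2.41 and 2.20), by a log2 of -1.12 ± 0.38 (limma adjusted p = 1). Tnfaip8 was at 43.4, 54.8 and 57.0 FPKM in AE+Meis2, above both other groups without overlap (log2 0.64 ± 0.24 over AE9a+Meis2 and 0.79 ± 0.27 over AE9a). Nfkbiz and Nfkbid, nuclear inhibitor-like proteins induced with Il1b, chosen after their values were seen, stood at 71.3 and 40.1 FPKM in AE+Meis2 replicate 3 and at most at 17.4 and 8.96 FPKM elsewhere.

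Messages for proteins that destroy cytokine mRNA were also measured. Zfp36 (tristetraprolin), which binds AU-rich elements in the Tnf message and speeds its decay, was at 508, 316 and 503 FPKM in AE9a+Meis2, at 245, 33.8 and 872 in AE+Meis2 and at 48.3 and 126 in AE9a. It differed by 2.45 ± 1.19 between AE9a+Meis2 and AE9a with no overlap (limma adjusted p = 1). Zfp36l1 differed from AE9a by 0.78 ± 0.32 in AE9a+Meis2 and 0.79 ± 0.32 in AE+Meis2, again with no overlap. Zfp36l2 was at 167, 584 and 282 FPKM in AE+Meis2 against 107 and 128 in AE9a (log2 1.36 ± 0.49). Of the 8 such genes 8 were higher in AE+Meis2 than in AE9a (median log2 0.33), where 55.9% of all genes were, and limma called none.

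The genes whose pattern over the 8 libraries was most like the mean of the 9 tested members were found among 11426 tested genes (members, immunoglobulin and T cell receptor segments, small RNAs and unnamed models left out) by Pearson correlation on log2 values, as a description. They included Klf6 (r = 0.98), Fas (0.98), Sik1 (0.98), Klf2 (0.97), Dnajb11 (0.97), Dusp1 (0.95), Slfn4 (0.95) and Trappc2l (0.95). Klf6, a zinc finger factor, was at 104, 53.2 and 196 FPKM in AE+Meis2, at 107, 76.8 and 129 in AE9a+Meis2 and at 56.5 and 61.1 in AE9a. Dusp1, a phosphatase that ends MAP kinase signalling, was at 299, 35.1 and 991, at 392, 225 and 381 and at 15.3 and 71.3 FPKM in the same order, and it belongs to the handling list. Fas, a death receptor, was highest in AE+Meis2 replicate 3 at 22.4 FPKM and lowest in AE+Meis2 replicate 2 at 1.38.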

How the data were processed

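The authors deposited 1 table of FPKM for 23997 genes in 8 libraries of leukemic mouse marrow, made with TopHat, Cufflinks and Cuffdiff on mm10, per the submitters' processing notes. Their versions, annotation, filters and scaling are not stated in those notes as held here. Titles gave each library's group and replicate number, and no label ties a library to a separate transduction. The p-values therefore reflect variation among the sequenced libraries, part of which may be technical.

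Values were taken to log2(FPKM + 1), which understates fold changes of low genes. The 12565 genes with at least 1 FPKM in at least 2 libraries were fitted in limma 3.58.1 (R 4.3.3), with a coefficient per group over all 8 libraries and a mean-variance trend in the moderation (prior df 2.28, residual df 5). Benjamini-Hochberg adjustment ran over all tested genes, the threshold was 0.05, and ± marks the standard error. FPKM holds no counts, so no counting interval is given.

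The members and gene lists were chosen with earlier results of these data known. All 10 members are named. From each other list, up to 3 genes per comparison that did not overlap and had the smallest p could be named, and exceptions are said to be so. Adgre1 was read under its older symbol Emr1, and Ly6g and Ahsp were not used. Gene coordinates are from GENCODE M21. Some genes of similar pattern are not reported here. On data simulated from these libraries (12565 genes), limma recovered 8.96%, 47.8% and 89.4% of genes changed by a log2 of 1, 2 and 4 for AE9a+Meis2 over AE9a. The shares were 13.4%, 65.7% and 89.4% for AE+Meis2 over AE9a+Meis2, and 2.99%, 53.7% and 84.8% for AE+Meis2 over AE9a. Genes of the lowest mean level were given no change in the simulation. Alternatives changed the pseudocount, filter, scaling, moderation, samples fitted, replicate block and libraries kept.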

Additional observations from a re-analysis of the deposited data

How the results depend on the processing

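No member was called in any comparison under any of the 17 alternatives. Ccl9 and Ccl3 kept their direction in AE9a+Meis2 over AE9a (1.44 to 2.14 and 3.16 to 4.50) and in AE+Meis2 over AE9a+Meis2 (-2.31 to -1.63 and -2.60 to -1.31) under all of them. The number of genes called was 6, 5 and 4 in AE9a+Meis2 over AE9a, AE+Meis2 over AE9a+Meis2 and AE+Meis2 over AE9a. In the last it was 1 with no filter on low values, which tests more genes, and 2 with only the 2 groups fitted. In the first it was 3 without AE9a+Meis2 replicate 3 and AE9a replicate 1, where Il1b went to -2.17. Ccl6 in AE+Meis2 over AE9a, 0.04 as reported, was -0.35 with quantile and -0.035 with median scaling. The cause was not tested.

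Deviations from group means correlated by -0.0252 to 0.1328 between libraries with the same replicate number and by -0.1011 to 0.0827 between other libraries. Deviations from a mean of 2 or 3 libraries are tied to each other, so this cannot settle whether samples were paired. The numbers were not taken to pair samples. With a replicate block 2, 5 and 0 genes were called, Il1b was -1.06 and Cxcl2 1.35 in AE9a+Meis2 over AE9a, and Ccl6 and Tnf were -0.18 and -0.27 in AE+Meis2 over AE9a.

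Leaving out 1 library at a time gave 2 to 9, 6 to 23 and 1 to 10 genes called, the highest in each case without AE+Meis2 replicate 3; the lowest came without AE9a replicate 1 in the first comparison and without the library labelled AE+Meis2 replicate 1 or AE9a replicate 1 in the last. The members' median ranged over 0.41 to 1.65, -0.30 to 0.61 and 0.52 to 1.58. Among single members, Il1b ranged over -1.30 to 1.65 in AE9a+Meis2 over AE9a. In AE+Meis2 over AE9a+Meis2 the ranges were -0.044 to 3.13 for Cxcl2, -0.30 to 0.72 for Ccl4, -0.60 to 0.14 for Ccl6, -1.22 to 0.54 for Tnf and -0.043 to 0.83 for Nfkbia. In AE+Meis2 over AE9a they were -0.28 to 0.45 for Ccl6, -0.34 to 0.026 for Ccl9 and -0.56 to 1.20 for Tnf. Where AE9a kept 1 library, it was taken to vary like the other groups. Depth is unknown, so no limit for low values such as those of Il1a can be given.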
